A study of Mus musculus with 12 samples.

Results

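Retinoic acid metabolism and its receptors were followed through 9 genes: Rdh10, Dhrs3, Cyp26b1, Crabp2, Rara, Rarb, Rarg, Rxra and Rxrb. They are 9 of the 54752 genes in the count table, matched by Ensembl identifier to their mouse symbols, and all 9 had enough counts to be tested. The set was chosen by the Cyp26b1 levels of the single knockouts, below control in the Ep300 and above it in the Crebbp knockout, so those values are a description with no test. The cells were B16F10, an established mouse melanoma line, grown in DMEM with 10% serum. RNA was sequenced in 12 libraries, 3 for each of 4 groups: control (genotype given as WT), Ep300 knockout, Crebbp knockout and the combined Ep300 Crebbp knockout, called double knockout here. The proteins of these genes, p300 and CBP, are related histone acetyltransferases that serve as coactivators for many transcription factors, nuclear receptors among them. The labels name no added retinoid. They do not say how the genes were disrupted, whether a knockout line is a clone or a pool, or if replicate libraries come from different cultures. The p-values therefore measure the spread between these libraries, which may be technical.

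Retinoic acid is made from retinol in consecutive oxidations. Retinol dehydrogenases such as Rdh10 make retinaldehyde, retinaldehyde dehydrogenases of the Aldh1a family make the acid, and Dhrs3 returns retinaldehyde to retinol. The acid is carried in the cell by Crabp2, is broken down by Cyp26 enzymes, and binds the receptors Rara, Rarb and Rarg, which act on DNA as heterodimers with a retinoid X receptor such as Rxra or Rxrb. Without ligand such dimers hold corepressors, and with ligand they recruit coactivators including p300 and CBP. Cyp26b1, Dhrs3, Crabp2 and Rarb are themselves known as genes that retinoic acid induces in many tissues. In melanoma cells the acid is best known for slowing growth and promoting differentiation.

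The sites where the receptor dimers bind are direct repeats of a short motif, AGGTCA or a close variant, and a repeat with a spacer of 5 bases (DR5) is the classic retinoic acid response element. RefSeq promoter windows (GRCm38.p6, 250 bases before to 50 after a transcription start) were at hand for 7 of the 9 genes, 15 windows in all. Rdh10 and Crabp2 had no window and were not searched. Both strands were searched for the DR1, DR2 and DR5 elements, for AGGTCA itself and for the TATA box TATAAA. A repeat built from AGGTCA would count under both names. The DR5 element was found in the Rarb window alone, 53 to 37 bases before the RefSeq start. The element lies inside the annotated span of Rarb (chr14:16430839-16819156), not upstream of it. It is shown because Rarb had the largest fall among the receptors, with the element in capitals (chr14:16575506-16575535, minus strand):

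Rarb: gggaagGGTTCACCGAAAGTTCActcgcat

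Of 32851 RefSeq promoter windows of this length, 32 (0.0974%) held a DR5 element, 73 (0.222%) a DR1 and 88 (0.268%) a DR2. No window of the 7 genes held a DR1 or DR2. AGGTCA stood in 3 of their 15 windows, 1 each of Rara, Rarg and Rxra, against 16.3% of all windows. The genes with the widest contrast between the single knockouts were Cyp26b1 and Dhrs3, so the stretch before the first annotated exon is printed for both. The Cyp26b1 stretch runs from chr6:84593909-84594060 on the minus strand, 250 to 99 bases before the RefSeq start, and the Dhrs3 stretch from chr4:144892577-144892826 on the plus strand. Capitals mark the TATA box, present in 13.6% of all windows:

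Cyp26b1: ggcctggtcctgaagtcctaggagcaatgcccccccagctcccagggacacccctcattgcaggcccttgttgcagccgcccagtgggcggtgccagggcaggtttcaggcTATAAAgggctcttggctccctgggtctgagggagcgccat

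Dhrs3: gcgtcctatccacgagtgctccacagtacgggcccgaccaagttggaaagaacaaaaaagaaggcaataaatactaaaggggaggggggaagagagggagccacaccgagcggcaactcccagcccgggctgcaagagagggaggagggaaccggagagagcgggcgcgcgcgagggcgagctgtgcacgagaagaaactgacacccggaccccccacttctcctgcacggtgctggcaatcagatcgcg

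Neither stretch held AGGTCA or a direct repeat of the 3 kinds searched. A match is a description of letters and says nothing of binding in these cells.

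The libraries held 64257251 to 85604243 counts, and the 9 genes drew between 36 and 4443 counts in a library. Levels below are in CPM, that is, counts divided by TMM-scaled library size (trimmed mean of M values) and brought to 1 total, as mean ± SD over n = 3 libraries. Changes are log2 fold changes ± SE from the edgeR quasi-likelihood test across all 18434 tested genes, with Benjamini-Hochberg adjusted p, called under 0.05. The Crebbp transcript fell from 64.7 ± 7.00 CPM in control to 34.5 ± 3.60 in Crebbp knockout (adjusted p = 0.000527) but stood at 64.0 ± 6.13 in double knockout. The Ep300 transcript was at 94.4 ± 7.72 CPM in control, 85.1 ± 8.80 in Ep300 knockout (adjusted p = 0.376) and 148 ± 11.1 in the double knockout, a rise of 0.65 (adjusted p = 7.3e-05). A disrupted gene can still be transcribed, so the Ep300 and double knockout labels are not checked by these transcripts, and each group is named here as its libraries are labelled. All 8 melanocyte markers were measured. Their summed level was 19535 to 21483 CPM in control, 14356 to 15077 in the Ep300 knockout, 18425 to 19234 in the Crebbp knockout and 6548 to 6716 in the double knockout. Markers of fibroblasts summed to 10.4 to 12.8 CPM in control, 18.5 to 24.4 in Ep300, 13.0 to 16.9 in Crebbp and 15.0 to 16.4 in double knockout. The members moved in different directions. In that order of groups, Col1a1 averaged 2.59, 13.8, 4.22 and 8.15 CPM, and Col1a2 3.35, 0.681, 3.80 and 0.368. Those of immune cells summed to 3.22 to 4.35, 4.16 to 5.23, 2.24 to 3.13 and 6.15 to 7.23 CPM in that order. Among them Cd68 averaged 1.87, 3.47, 1.67 and 6.18 CPM, while Lyz2 averaged 1.81 in control and 0.596 in double knockout. The macrophage marker Adgre1 was at 0 in every library. Markers of endothelium and epithelium summed to at most 1.08 CPM. A list of 14 histone genes whose transcripts lack poly(A) tails, a sign of RNA selection, summed to 2278 to 2567 CPM in double knockout and 2868 to 3963 in the other groups. The part of these shifts in the changes below was not tested, and in bulk RNA fewer cells of a type cannot be told apart from less RNA per cell.

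Against control, the libraries labelled double knockout differed in most of the 9 genes, those labelled Ep300 knockout in several and those labelled Crebbp knockout in Dhrs3 alone among the 8 genes with a test. In Ep300 knockout 3 of 8 genes passed, Dhrs3 and Rara higher and Rarb lower, where 16.1% of all tested genes passed, 7.27% higher and 8.83% lower. In Crebbp knockout 1 of 8 passed, where 3.13% of all genes did, 1.52% higher and 1.61% lower. In double knockout 8 of 9 passed, 5 higher and 3 lower, where 49.4% of all genes passed, 24.7% higher and 24.6% lower. The 9 genes' median log2 change was -0.01 in each single knockout and 0.39 in double knockout, against -0.02 to 0.01 for all tested genes. The 3 comparisons share the control libraries. The 9 genes were chosen with earlier results of these data known, so these counts are not independent of the choice. The libraries of the groups did not overlap in 4 of 8 genes for Ep300 knockout (28.4% of all genes), 2 of 8 for Crebbp knockout (20.5%) and 8 of 9 for double knockout (59.7%).

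**Figure D1:**
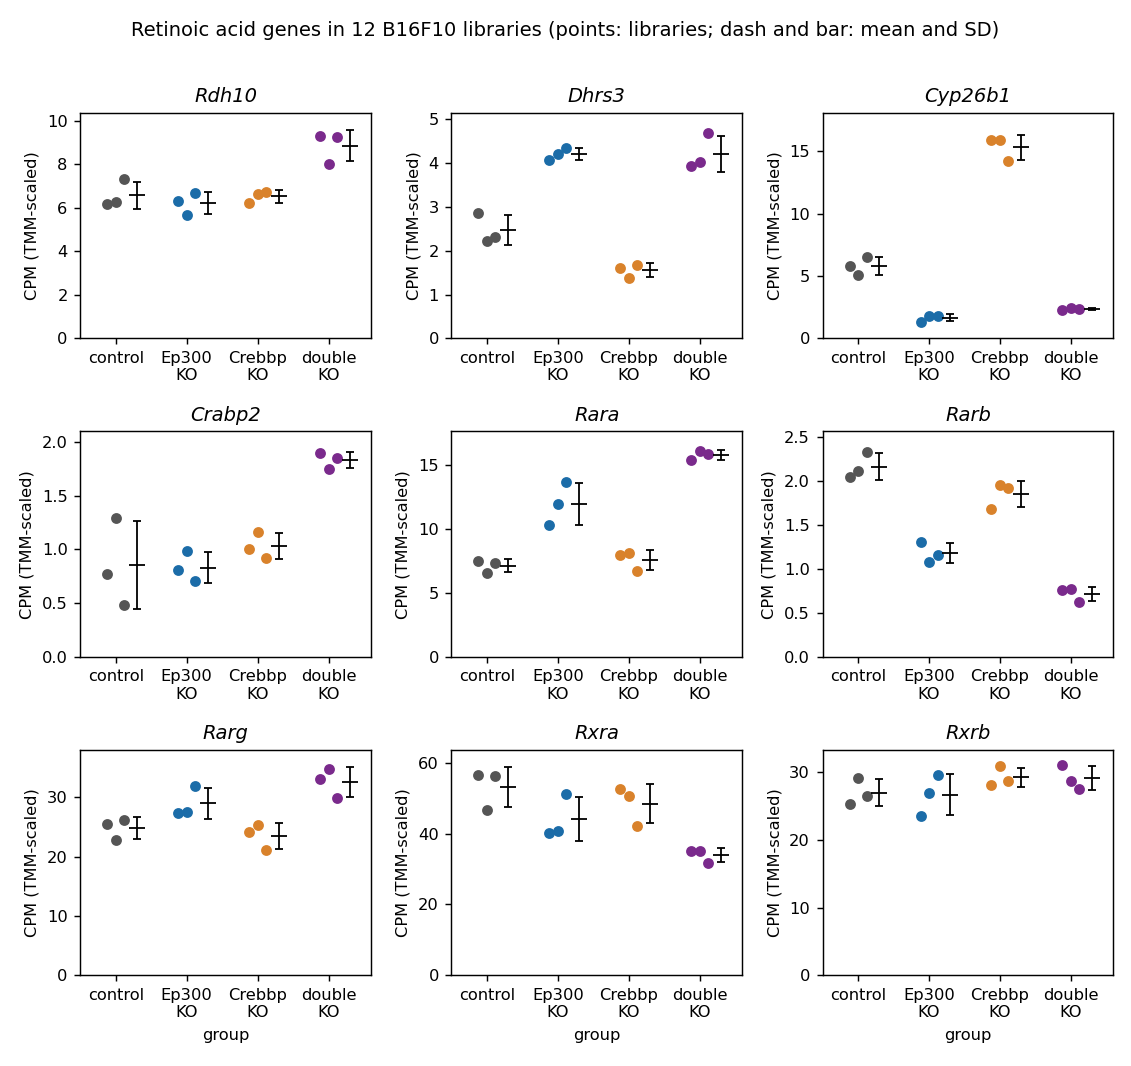
Level of each of the 9 genes in CPM after TMM scaling (vertical axis, starting at 0) in the 4 groups; points are libraries, dash and bar the mean and SD of 3. Cyp26b1 lies between 14.2 and 15.9 CPM in Crebbp knockout and below 2.5 in Ep300 and double knockout, while Dhrs3 has its lowest libraries in Crebbp knockout, at 1.37 to 1.68 CPM.

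**Figure D2:**
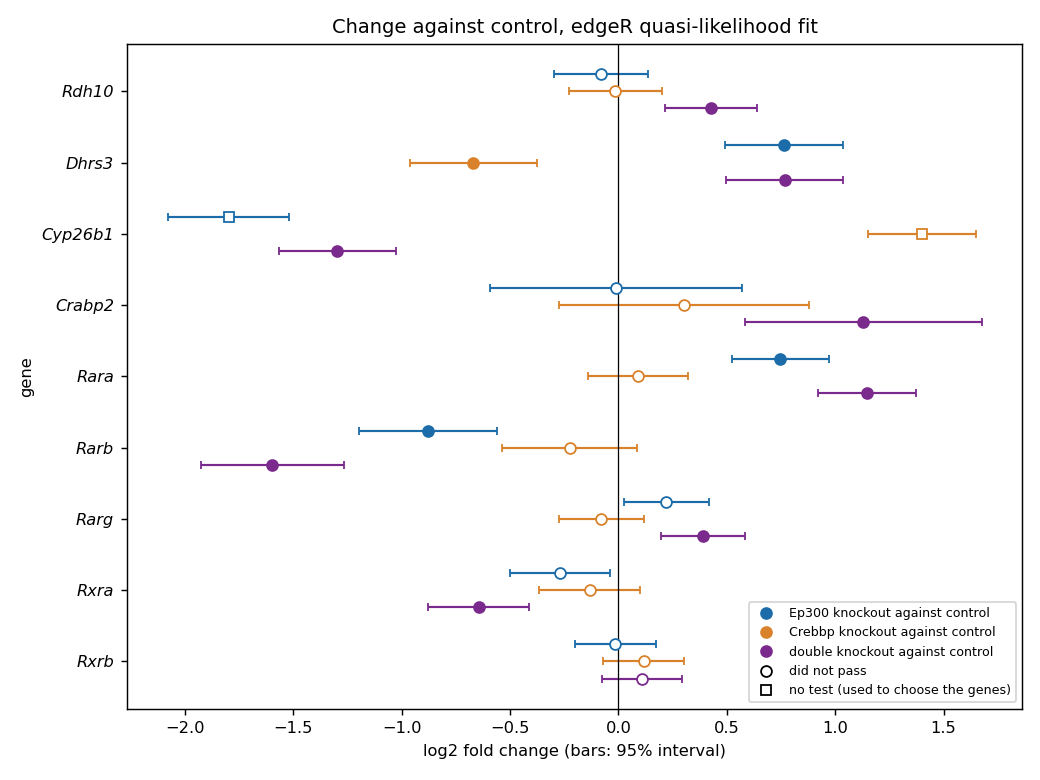
Log2 fold change against control (horizontal axis) for each gene, 1 colour per knockout group, with 95% intervals; filled circles passed the test, open circles did not, open squares carry no test. Rara and Rarb move apart in Ep300 and double knockout, at 1.15 and -1.60 in the latter, and Rxrb lies near 0 in each group.

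Synthesis and its reversal are represented by Rdh10 and Dhrs3. Rdh10 (ENSMUSG00000025921, mm10 chr1:16105774-16133734, plus strand), which oxidises retinol to retinaldehyde, was higher in double knockout and overlapped control in the single knockouts. Its 3 libraries were at 6.18, 6.26 and 7.31 CPM in control, 6.31, 5.68 and 6.70 in the Ep300 knockout, 6.20, 6.64 and 6.74 in the Crebbp knockout, and 9.31, 8.03 and 9.24 in the double knockout. The double knockout libraries lay above all 9 others, and the other groups overlapped. The rise was 0.43 ± 0.10 against control (edgeR adjusted p = 0.00221), 0.51 ± 0.10 against Ep300 knockout (adjusted p = 0.00132) and 0.44 ± 0.10 against Crebbp knockout (adjusted p = 0.00221). The single knockouts gave -0.08 (95% interval -0.30 to 0.13, adjusted p = 0.681) and -0.01 (-0.23 to 0.20, adjusted p = 0.959). The double-knockout change thus exceeded the sum of the single ones by 0.52 ± 0.14 (adjusted p = 0.0298). That call was lost on leaving out any of control replicate 3, Ep300 knockout replicate 2, Crebbp knockout replicate 1 and double knockout replicates 1 and 3, with adjusted p of 0.0639 to 0.09.

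Dhrs3 (ENSMUSG00000066026, mm10 chr4:144892827-144928209, plus strand), the reductase that turns retinaldehyde back into retinol, moved in opposite directions in the libraries labelled Ep300 and Crebbp knockout. The libraries read 2.86, 2.22 and 2.32 CPM in control, 4.07, 4.20 and 4.33 in the Ep300 knockout, 1.62, 1.37 and 1.68 in the Crebbp knockout, and 3.94, 4.02 and 4.68 in the double knockout. Ep300 and double knockout overlapped at the top, control lay between, and Crebbp knockout lay lowest with no overlap. Dhrs3 rose 1.70-fold in Ep300 knockout (0.76 ± 0.13, edgeR adjusted p = 0.000507) and by the same factor in double knockout (0.77 ± 0.13, adjusted p = 0.00014). In Crebbp knockout it fell by 0.67 on the log2 scale, with an SE of 0.14 (adjusted p = 0.0165). That fall did not pass in a fit of those 2 groups alone (adjusted p = 0.0777), without control replicate 1 (0.0724) or without Crebbp knockout replicate 2 (0.0873). Between the single knockouts the difference was 1.43 ± 0.13 (adjusted p = 1.89e-06), and double against Crebbp knockout gave 1.44 ± 0.13 (adjusted p = 4.83e-07). Double against Ep300 knockout gave 0.00 ± 0.12, with a 95% interval of -0.26 to 0.26 (adjusted p = 0.987). Dhrs3 in double knockout lay 0.67 ± 0.18 above the sum of the single changes (adjusted p = 0.0303). Leaving out any of 6 libraries took that call past the threshold, with adjusted p of 0.0539 to 0.0952: control replicate 1, Ep300 knockout replicates 1 and 2, Crebbp knockout replicate 2 and double knockout replicates 2 and 3.

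Cyp26b1 (ENSMUSG00000063415, mm10 chr6:84571414-84593908, minus strand), the cytochrome P450 that oxidises retinoic acid for removal, had 4 separate levels. Control libraries held 5.81, 5.05 and 6.51 CPM and Ep300 knockout libraries 1.32, 1.83 and 1.83. Crebbp knockout libraries held 15.9, 15.9 and 14.2 CPM and double knockout libraries 2.26, 2.44 and 2.39. No 2 groups overlapped, and the order was Crebbp knockout, control, double knockout, Ep300 knockout. The fitted values that chose the set were -1.80 ± 0.13 for Ep300 and 1.40 ± 0.12 for Crebbp knockout against control, and -3.20 ± 0.13 between them. Crebbp knockout thus read 9.19-fold above Ep300 knockout. In the double knockout libraries, which the rule of choice did not name, Cyp26b1 fell 2.46-fold (-1.30 ± 0.13, edgeR adjusted p = 6.87e-07). The control libraries of this test entered the choice of the gene, and earlier results of these data were known. The test is therefore not independent of the choice, and without Cyp26b1 the count called in double knockout is 7 of 8. The double knockout value stood 0.50 ± 0.14 above Ep300 knockout, 2.70 ± 0.12 below Crebbp knockout and -0.90 ± 0.18 from the sum of the single changes, all given without a test because they hold knockout groups that chose the gene. Set beside each other, Cyp26b1 and Dhrs3 had opposite signs in all 3 knockout groups against control. Rdh10 did not share the single-knockout pattern.

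Crabp2 (ENSMUSG00000004885, mm10 chr3:87948666-87953376, plus strand), the cellular binding protein that hands retinoic acid to its receptors, was higher in double knockout. The libraries were at 0.774, 1.29 and 0.486 CPM in control, 0.806, 0.981 and 0.703 in the Ep300 knockout, 1.00, 1.16 and 0.924 in the Crebbp knockout, and 1.89, 1.75 and 1.85 in the double knockout. The double knockout libraries lay above all others, and control was the most scattered group, with an SD of 0.409 CPM. The rise was 2.19-fold against control (1.13 ± 0.26, edgeR adjusted p = 0.00188) and 1.14 ± 0.25 against Ep300 knockout (adjusted p = 0.00316). Against Crebbp knockout it was 0.83 ± 0.25 (adjusted p = 0.0146, and 0.0512 without Crebbp knockout replicate 3). The single-knockout changes of Crabp2 were -0.01 (95% interval -0.59 to 0.57) and 0.30 (-0.27 to 0.88), wide enough to hold changes of either sign. Its excess over the sum of the single changes was 0.84 ± 0.37 (adjusted p = 0.167), with adjusted p = 0.0474 when control replicate 3 was left out.

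The retinoic acid receptors moved in different directions within the same libraries. Rara (ENSMUSG00000037992, mm10 chr11:98927818-98974942, plus strand), the most widely expressed of the 3 across tissues, was at 7.50, 6.56 and 7.31 CPM in control and 10.3, 11.9 and 13.6 in Ep300 knockout. It was at 7.94, 8.15 and 6.71 CPM in Crebbp knockout and 15.4, 16.1 and 15.9 in double knockout. Control and Crebbp knockout overlapped, Ep300 knockout lay above both and double knockout above all. Rara rose 1.68-fold in Ep300 knockout (0.75 ± 0.11, edgeR adjusted p = 0.000115) and 2.21-fold in double knockout (1.15 ± 0.11, adjusted p = 3.79e-07). In Crebbp knockout its change was 0.09 (95% interval -0.14 to 0.32, adjusted p = 0.695). The knockout groups also differed among themselves, by 0.66 ± 0.11 for Ep300 against Crebbp knockout (adjusted p = 0.00049) and 0.40 ± 0.10 for double against Ep300 knockout (adjusted p = 0.00774). The double-knockout change was 0.31 ± 0.15 beyond the sum of the single ones (adjusted p = 0.21).

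Rarb (ENSMUSG00000017491, mm10 chr14:16430839-16819156, minus strand), the receptor with the DR5 element printed above and often found silenced in tumours, fell where Rara rose. Its libraries were at 2.04, 2.12 and 2.34 CPM in control and 1.68, 1.96 and 1.92 in Crebbp knockout. They were at 1.31, 1.08 and 1.16 CPM in Ep300 knockout and 0.761, 0.768 and 0.620 in double knockout. All 4 groups were separate, in the order control, Crebbp knockout, Ep300 knockout, double knockout. Rarb fell 1.84-fold in Ep300 knockout (-0.88 ± 0.15, edgeR adjusted p = 0.000626) and 3.02-fold in double knockout (-1.60 ± 0.15, adjusted p = 6.98e-07). In Crebbp knockout the value was -0.23 ± 0.15 (adjusted p = 0.449). Double knockout lay 0.72 on the log2 scale lower than Ep300 knockout (-0.72 ± 0.16, adjusted p = 0.00324). The test against the sum of the single changes gave -0.49 ± 0.22 (adjusted p = 0.164). Exons of Rarb share 1793 bases with Top2b on the other strand, which drew 6663 to 13062 counts a library against at most 173 for Rarb. The strand setting of the counting is not given in the sources used here, so reads in the shared bases cannot be told apart, and the level of Rarb per length is uncertain. Top2b read 128 ± 10.5 CPM in control, 130 ± 7.85 in the Ep300 knockout, 140 ± 13.6 in the Crebbp knockout and 143 ± 5.50 in the double knockout, with no call in any comparison (adjusted p of 0.139 to 0.945).

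Rarg (ENSMUSG00000001288, mm10 chr15:102234938-102257517, minus strand), the main retinoic acid receptor of skin, was the most abundant of the 3. It was at 25.5, 22.8 and 26.1 CPM in control, 27.4, 27.5 and 31.9 in the Ep300 knockout, 24.2, 25.3 and 21.0 in the Crebbp knockout, and 33.1, 34.8 and 29.8 in the double knockout. Ep300 and double knockout overlapped and both lay above the other groups, which overlapped with each other. The rise in double knockout was 0.39 ± 0.09 against control (edgeR adjusted p = 0.00227) and 0.47 ± 0.09 against Crebbp knockout (adjusted p = 0.000725). With offsets for exon length and GC content the first of these fell to 0.10 (adjusted p = 0.189). The Ep300 knockout value of 0.22 ± 0.09 did not pass (adjusted p = 0.125), nor did Crebbp knockout (-0.08 ± 0.09, adjusted p = 0.693). The difference between the single knockouts, 0.30 ± 0.09 (adjusted p = 0.0407), was lost in 8 of the alternatives run, with adjusted p of 0.0525 to 0.129.

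The retinoid X receptors are the shared partners of the retinoic acid, thyroid hormone, vitamin D and PPAR receptors. Rxra (ENSMUSG00000015846, mm10 chr2:27676440-27762957, plus strand) was at 56.4, 46.5 and 56.1 CPM in control, 40.1, 40.8 and 51.2 in the Ep300 knockout, 52.5, 50.6 and 42.1 in the Crebbp knockout, and 35.2, 35.0 and 31.6 in the double knockout. The double knockout libraries lay below all others, and the other groups overlapped. Rxra fell 1.56-fold in double knockout (-0.64 ± 0.11, edgeR adjusted p = 0.00018), and lay 0.51 ± 0.11 on the log2 scale below Crebbp knockout (-0.51, adjusted p = 0.00149). Against Ep300 knockout the value was -0.38 ± 0.11 (adjusted p = 0.0154), which did not pass without Ep300 knockout replicate 3 (0.0637) or double knockout replicate 3 (0.0667). Ep300 knockout against control gave -0.27 ± 0.11 (adjusted p = 0.117). It passed with no filter on low counts (0.0218), with length and GC offsets (0.00276), without control replicate 2 (0.0402) and without Ep300 knockout replicate 3 (0.017). Crebbp knockout gave -0.13 ± 0.11 (adjusted p = 0.562), and the test of additivity -0.24 ± 0.15 (adjusted p = 0.35, and -0.38 with 0.0272 under the offsets).

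Rxrb (ENSMUSG00000039656, mm10 chr17:34031812-34038399, plus strand) was the steadiest of the 9 genes by its calls. Its libraries were at 25.2, 29.1 and 26.5 CPM in control, 23.5, 26.9 and 29.5 in the Ep300 knockout, 28.1, 30.8 and 28.7 in the Crebbp knockout, and 31.0, 28.7 and 27.5 in the double knockout. Each group overlapped with each other one. No comparison passed, and the double-knockout change of 0.11 had a 95% interval of -0.08 to 0.30 (edgeR adjusted p = 0.32). Under the length and GC offsets that change turned to -0.23 (adjusted p = 0.0224), and double against Crebbp knockout read -0.27 (adjusted p = 0.0114), so the direction for Rxrb depends on this correction.

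Per kilobase of exon, a scale that allows genes to be ranked, the retinoid X receptors and Rarg led in every group. In control the levels were 9.71 CPM per kb for Rxra, 6.79 for Rxrb, 5.82 for Rarg, 1.63 for Rara, 1.58 for Rdh10, 1.08 for Cyp26b1, 0.843 for Dhrs3, 0.644 for Crabp2 and 0.411 for Rarb. Rara and Rdh10 overlapped, as did each neighbour pair from Cyp26b1 down to Rarb, so those places are not set apart. In double knockout Rarg (7.64 CPM per kb) and Rxrb (7.32) overlapped at the top and stood above Rxra (6.21). Rara (3.62), Rdh10 (2.13), Dhrs3 (1.44) and Crabp2 (1.38) followed, the last pair overlapping, with Cyp26b1 (0.442) and Rarb (0.136) lowest. Cyp26b1 ranked next after the retinoid X receptors and Rarg in Crebbp knockout, at 2.87 CPM per kb, above Rara at 1.74. In Ep300 knockout it stood second to last at 0.310, overlapping with Rarb at 0.224.

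Summed per kilobase, the 3 retinoic acid receptors reached 7.87 ± 0.537 CPM per kb in control, 9.76 ± 0.954 in the Ep300 knockout, 7.61 ± 0.691 in the Crebbp knockout and 11.4 ± 0.631 in the double knockout. Rxra and Rxrb together reached 16.5 ± 0.576, 14.8 ± 1.83, 16.2 ± 1.12 and 13.5 ± 0.770 in the same order. The double knockout libraries were above every control library in the first sum and below every one in the second. Rara made up 20.7 ± 0.485% of the receptor sum in control and 31.8 ± 1.75% in double knockout, and Rarb 5.24 ± 0.390% and 1.19 ± 0.0857%. Rarg stayed the main receptor transcript, at 74.0 ± 0.306% and 67.0 ± 1.67%. Rxra was 58.8 ± 4.40% of the retinoid X receptor sum in control and 45.9 ± 0.944% in double knockout. These sums and shares are descriptions with no test, and they are sums of transcripts, not of proteins. They were not recomputed with the length and GC offsets. Under those the double-knockout change was 0.10 for Rarg (edgeR adjusted p = 0.189) and -0.23 for Rxrb (0.0224). The share of Rarb carries the uncertainty of its level per length given above.

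**Figure D3:**
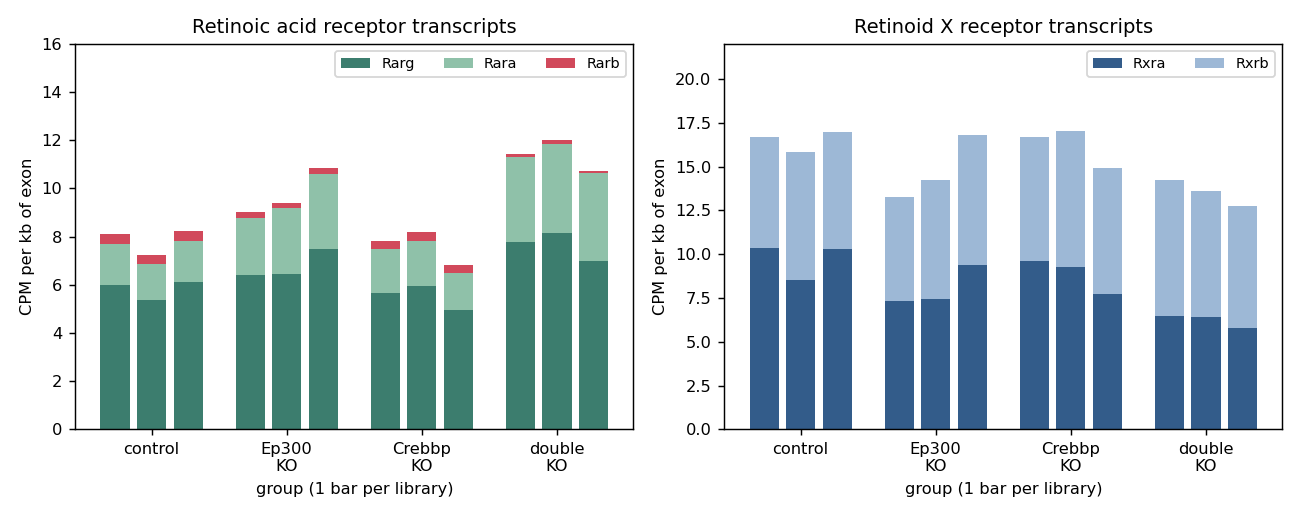
Receptor transcripts per kilobase of exon (CPM per kb, axes from 0), 1 stacked bar per library: left the retinoic acid receptors Rarg, Rara and Rarb, right the retinoid X receptors Rxra and Rxrb. The double knockout bars sum to 10.7 to 12.0 on the left, above the control bars at 7.25 to 8.25, and to 12.7 to 14.3 on the right, below the control bars at 15.8 to 17.0.

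The libraries labelled as knockouts were also compared with each other. Between Ep300 and Crebbp knockout 4 of 8 genes with a test passed, Dhrs3, Rara and Rarg higher and Rarb lower in Ep300 knockout, where 13.6% of all genes passed, 6.26% higher and 7.37% lower. Double against Ep300 knockout had 5 of 8, Rdh10, Crabp2 and Rara higher and Rarb and Rxra lower (34.6% of all genes, 18% higher and 16.6% lower). Double against Crebbp knockout had 7 of 8, all but Rxrb (43.2% of all genes, 21.4% higher and 21.8% lower). Departures from additivity passed in 2 of 8, Rdh10 and Dhrs3, both above the sum (10.3% of all genes, 5.33% above and 4.96% below).

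The pathway lists that follow were also chosen with earlier results of these data known. Of 26 other listed genes of retinoid synthesis and storage, 15 had enough counts to be tested. In Ep300 knockout 5 fell and none rose (median -0.23), in Crebbp knockout 2 fell (median -0.21), and in double knockout 7 fell and 2 rose (median -0.26). As a share of those tested, 33.3%, 13.3% and 60% passed, against 16.1%, 3.13% and 49.4% of all genes in these comparisons. Aldh1a3, a retinaldehyde dehydrogenase that makes the acid itself, went from 5.49 CPM in control to 2.93 in Ep300 knockout (-0.90 ± 0.13, edgeR adjusted p = 0.000107) and 2.15 in the double knockout (-1.35 ± 0.13, adjusted p = 5.8e-07). It read 4.20 CPM in Crebbp knockout (-0.38, adjusted p = 0.114). Adh7, an alcohol dehydrogenase that accepts retinol, fell from 23.4 CPM to 15.0 in Ep300, 16.8 in Crebbp and 14.5 in double knockout (adjusted p = 0.000253, 0.0176 and 3.63e-05). Rdh13, another short-chain dehydrogenase, fell in Crebbp (-0.30, adjusted p = 0.0206) and double knockout (-0.46, adjusted p = 3.11e-05). In Crebbp knockout the calls of Adh7 and Rdh13 were both lost without control replicate 2, Crebbp knockout replicate 1 or Crebbp knockout replicate 2. The adjusted p was then 0.0546 to 0.0876 for Adh7 and 0.0525 to 0.086 for Rdh13. Rdh13 also lost its call without control replicate 3 (adjusted p = 0.0897) and in a fit of those 2 groups alone (adjusted p = 0.0591). Of the Aldh1a family, Aldh1a1 had 38 counts over all 12 libraries and Aldh1a2 had 1, both too few to test, so Aldh1a3 was the only one of the 3 at a testable level. Lrat, which esterifies retinol for storage, had 37, 15 and 23 counts in control, 2, 2 and 1 in the Ep300 knockout, 13, 18 and 11 in the Crebbp knockout, and 1, 1 and 2 in the double knockout. Pooled and scaled, control exceeded Ep300 knockout 17.0-fold (95% counting interval 6.99 to 54.0; edgeR adjusted p = 5.38e-05) and double knockout 24.1-fold (9.04 to 90.8; adjusted p = 7.12e-06). These intervals cover the counting error of pooled counts alone and leave out the spread between libraries. Lrat passed the filter only through control and Crebbp knockout, where it is high, so its falls are not independent of the filter.

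Among other genes of breakdown, 2 of 5 were tested. Cyp1b1, a P450 with retinoids among its substrates, rose from 0.306 CPM to 1.19 in Ep300 (1.96 ± 0.24, edgeR adjusted p = 2.36e-05), 0.656 in Crebbp (1.11 ± 0.25, adjusted p = 0.0288) and 2.65 in the double knockout (3.12 ± 0.23, adjusted p = 2.63e-08). The Crebbp knockout call was lost with limma-voom (adjusted p = 0.0781), in a fit of those 2 groups alone (adjusted p = 0.134), and without any of control replicates 2 and 3 and Crebbp knockout replicates 1 and 3 (adjusted p of 0.0509 to 0.14). Of the 2 tested genes 1 passed in each knockout group. That is 50%, against 16.1%, 3.13% and 49.4% of all genes in Ep300, Crebbp and double knockout. Cyp26a1, the sister enzyme of Cyp26b1, had 15, 18, 10 and 48 counts summed over the 3 libraries of control, Ep300, Crebbp and double knockout. Its double-knockout value against control was 1.30 (adjusted p = 0.0531), so Cyp26a1 and Cyp26b1 had fitted values of opposite sign there, at levels close to the detection limit for the former. Cyp26a1 drew 13 to 18 counts a library in double knockout and at most 10 in any other group. It passed the filter only through double knockout, so tests of a rise there are not independent of the filter. Double against Crebbp knockout gave 1.84 ± 0.56 for Cyp26a1 (edgeR adjusted p = 0.0158). That call was lost without Crebbp knockout replicate 1 (0.0772) or double knockout replicate 2 (0.052). The list's calls in double knockout against control became 2 with no filter, with only those groups, or without Crebbp knockout replicate 1.

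In transport and binding, 3 of 12 genes were tested. In Ep300 and in double knockout 2 of the 3 passed, or 66.7%, against 16.1% and 49.4% of all genes. Fabp5, which carries retinoic acid to PPAR-delta and is often set against Crabp2, fell from 305 CPM to 141 in Ep300 knockout (-1.12 ± 0.11, edgeR adjusted p = 4.13e-06) and 71.7 in the double knockout (-2.09 ± 0.12, adjusted p = 1.36e-09). It read 264 CPM in Crebbp knockout (-0.21, adjusted p = 0.364), and lay 0.76 on the log2 scale below the sum of the single changes (-0.76 ± 0.16, adjusted p = 0.00721). Rlbp1, the retinaldehyde-binding protein of the eye, fell in Ep300 (-0.91, adjusted p = 0.0337) and double knockout (-1.39, adjusted p = 0.00079). The Ep300 knockout call of Rlbp1 was lost in a fit of those 2 groups alone (adjusted p = 0.0764) and without any 1 of the control libraries or Ep300 knockout replicates 1 and 3 (adjusted p of 0.0502 to 0.137). No gene of this list passed in Crebbp knockout with edgeR, DESeq2 or limma-voom, and 0 had an unadjusted p under the threshold. The retinol importer Stra6 had 16 counts over all libraries. Crabp1, the sister of Crabp2, had 0 counts in all 12, which allows at most 0.0321 to 0.0525 CPM in a library for counting error alone (3 counts). Rxrg had 1 count in all.

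Partners of the retinoid X receptors were tested for 10 of 14 listed genes. In Ep300 knockout 3 rose and 1 fell, in double knockout 5 rose and 2 fell (median 0.72), which is 40% and 70% of those tested, against 16.1% and 49.4% of all genes. In Crebbp knockout 0 passed with edgeR or limma-voom and 1 with DESeq2, with 2 at an unadjusted p under the threshold. Nr1h4, the bile acid receptor, fell from 17.6 CPM to 10.4 in Ep300 knockout (-0.76 ± 0.08, edgeR adjusted p = 4.57e-06) and 6.53 in the double knockout (-1.43 ± 0.08, adjusted p = 1.37e-09). Nr4a1, an orphan receptor that is induced early by many stimuli, rose in the libraries labelled double knockout, from 12.8 to 30.1 CPM (1.23 ± 0.10, adjusted p = 7.32e-08). Its excess over the sum of the single changes was 1.33 ± 0.14 (adjusted p = 2.78e-05). Its relative Nr4a2 rose from 3.56 to 9.86 CPM in double knockout (1.47, adjusted p = 1.46e-07). Vdr, the vitamin D receptor (0.76, adjusted p = 0.0108), and Ppara (1.30, adjusted p = 0.0118) rose in Ep300 knockout. The list's 4 calls in Ep300 knockout became 2 without control replicate 1, control replicate 3 or Ep300 knockout replicate 3, and the 7 in double knockout became 4 with a filter of 1 CPM in 3 libraries. Vdr lost its call without control replicate 3 (adjusted p = 0.0575) or Ep300 knockout replicate 3 (adjusted p = 0.0513). Ppara lost its call without control replicate 1 (adjusted p = 0.0528) or 3 (adjusted p = 0.0617) and in a fit of those 2 groups alone (adjusted p = 0.0543).

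Nuclear receptor coregulators, 16 genes all tested, had 1 rise and 2 falls in Ep300 knockout and 9 rises and 2 falls in double knockout (median 0.27). These are 18.8% and 68.8% of the list, against 16.1% and 49.4% of all genes, and the 11 calls in double knockout became 7 without control replicate 2 and 6 without double knockout replicate 2. In Crebbp knockout 0 passed with edgeR, DESeq2 or limma-voom, and 3 had an unadjusted p under the threshold. Tacc1 fell from 180 CPM to 117 in Ep300 and 107 in double knockout (adjusted p = 7.97e-05 and 4.03e-06). Tbl1xr1, an exchange factor of the corepressor complex, fell from 70.1 CPM to 53.2 and 42.7 (adjusted p = 0.000324 and 2.31e-07). Ncor1, the corepressor itself, rose from 242 to 361 CPM in double knockout (0.58 ± 0.09, adjusted p = 7.99e-05). Kat2b, another acetyltransferase coactivator, rose from 89.0 to 103 CPM in Ep300 knockout (0.20 ± 0.06, adjusted p = 0.0243). Kat2b lost that call with no filter on low counts (adjusted p = 0.122), in a fit of those 2 groups alone (adjusted p = 0.104), and without control replicate 1, control replicate 3 or Ep300 knockout replicate 1 (adjusted p of 0.0639 to 0.087).

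Of 40 listed genes known to be induced by retinoic acid in other settings, 21 were tested: 5 rose and 2 fell in Ep300 knockout (median 0.17), 1 rose in Crebbp knockout (median 0.02), and 9 rose and 2 fell in double knockout (median 0.30). The shares called, 33.3%, 4.76% and 52.4%, stand against 16.1%, 3.13% and 49.4% of all genes, so those in Crebbp and double knockout were near the background. The 7 calls in Ep300 knockout became 4 without control replicate 3, with a filter of 1 CPM in 3 libraries, or when the other groups were left out of the fit, and the 11 in double knockout became 7 with that filter. Btg2, an antiproliferative gene, rose from 9.09 CPM to 15.3 in Ep300 (0.75 ± 0.07, edgeR adjusted p = 2.95e-06) and 24.1 in the double knockout (1.41 ± 0.07, adjusted p = 6.37e-10). The orphan receptor Nr2f1 rose in the same groups (0.44, adjusted p = 0.0019, and 0.86, adjusted p = 9.19e-07). Hoxa5 rose in double knockout, from 3.48 to 6.87 CPM (0.98 ± 0.12, adjusted p = 5.54e-06). Nr2f2 was the gene that rose in Crebbp knockout, from 42.3 to 53.3 CPM (0.33 ± 0.08, adjusted p = 0.0315). That call was lost in a fit of those 2 groups alone (adjusted p = 0.09) and without any of control replicates 2 and 3, Crebbp knockout replicates 1 and 2 and double knockout replicate 1 (adjusted p of 0.0531 to 0.109). Ep300 knockout lay 0.54 on the log2 scale lower than Crebbp knockout for Nr2f2 (-0.54 ± 0.08, adjusted p = 0.000169). Lrat, described above with the limit set by the filter, is also on this list and fell.

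**Figure D4:**
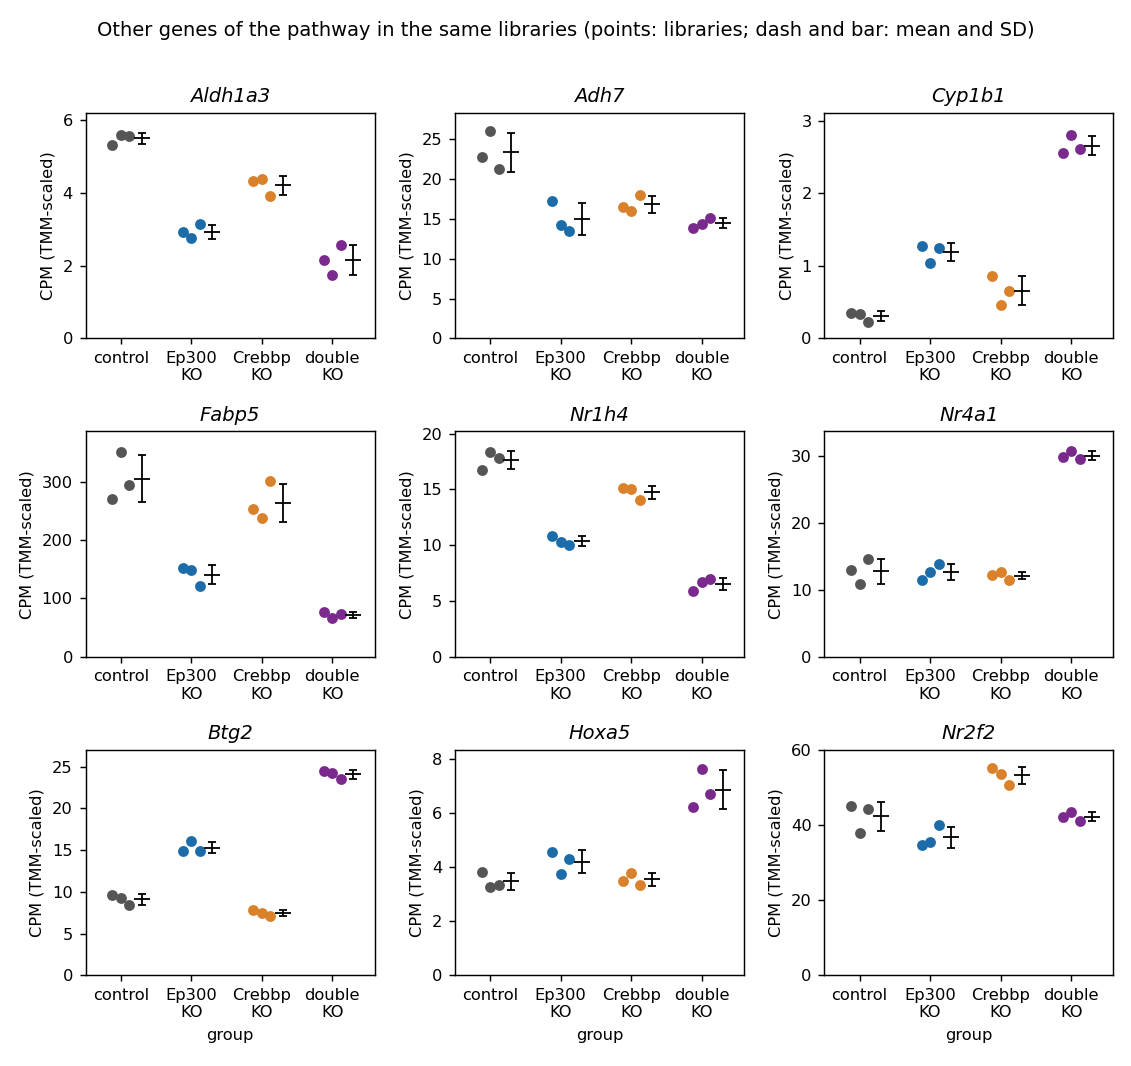
CPM after TMM scaling (vertical axis from 0) of 9 other genes of the pathway in the 4 groups; points are libraries, dash and bar the mean and SD of 3. Aldh1a3, Fabp5 and Nr1h4 step down from control through Ep300 to double knockout, Cyp1b1 and Btg2 step up over the same groups, and Nr4a1 stands apart in double knockout at 30.1 CPM against 12.8 in control.

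The genes most like Cyp26b1 across the 12 libraries were sought by the root mean square difference of log2(CPM + 0.1), each gene centred on its own mean, among 10945 named genes whose mean reached 1 CPM. The 5 nearest were Calr4 (0.501), Sema6a (0.512), Sox9 (0.53), Abca12 (0.539) and Gas7 (0.565), against 1.22 for a gene that does not vary. All share the 12 libraries with Cyp26b1, and the values are descriptions. Sox9, a neural crest transcription factor, was at 27.5 ± 4.43 CPM in control, 6.07 ± 1.23 in the Ep300 knockout, 27.9 ± 3.07 in the Crebbp knockout and 8.99 ± 1.25 in the double knockout. Calr4, Abca12 and Gas7 had the same layout, low in Ep300 and double knockout with Crebbp knockout overlapping control. Sema6a, a semaphorin, was the only one of the 5 whose Crebbp knockout libraries all exceeded control: 27.3, 22.2 and 27.2 CPM in control against 40.7, 41.2 and 33.8. It was at 10.4 ± 0.997 CPM in Ep300 knockout and 14.1 ± 0.536 in double knockout. None of the 5 had a spread between Ep300 and Crebbp knockout as wide as that of Cyp26b1.

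**Figure D5:**
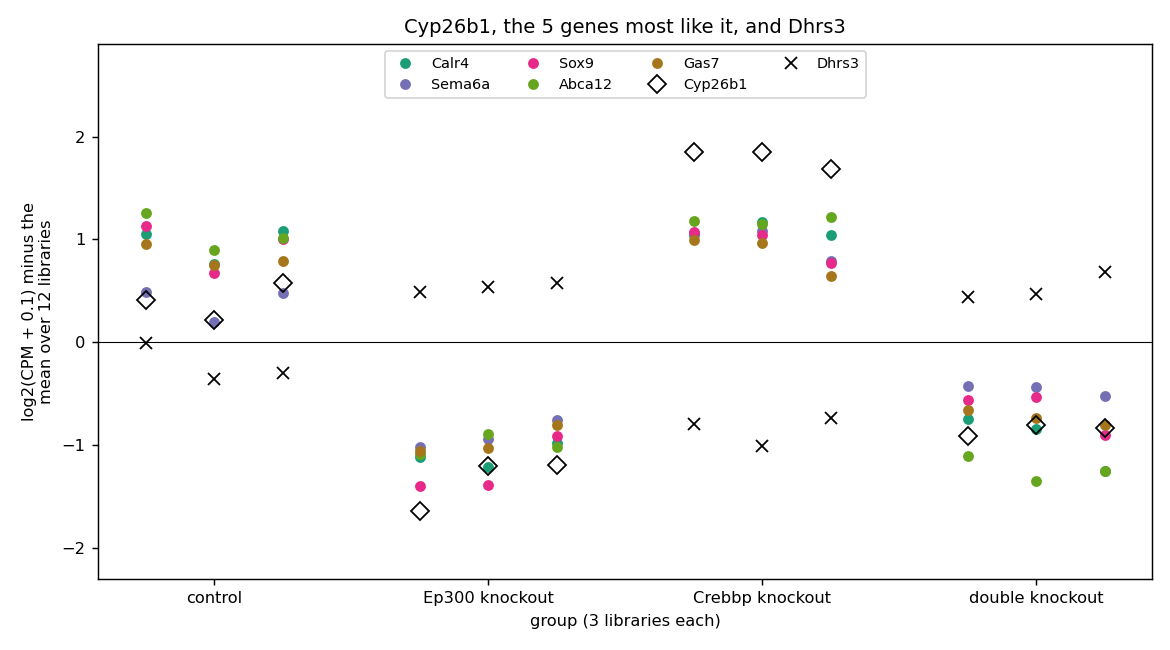
Centred log2(CPM + 0.1) (vertical axis) of Cyp26b1 (diamonds), its 5 nearest genes (coloured points) and Dhrs3 (crosses) in the 12 libraries, 3 per group. Crebbp knockout libraries of Cyp26b1 stand above those of the 5 genes, and Dhrs3 lies on the other side of 0 from Cyp26b1 in Ep300, Crebbp and double knockout.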

How the data were processed

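RNA of 12 B16F10 libraries was made into KAPA Stranded mRNA-Seq libraries, per the labels' protocols. The submitters' processing notes name bcl2fastq, HISAT2, HTSeq and build mm10. Their versions, the annotation and the strand setting were not given in the sources used here. Values are whole-number read counts by Ensembl identifier, deposited without normalization by the authors. Symbols, positions and exon lengths came from GENCODE M21, promoters from RefSeq (GRCm38.p6).

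Counts were filtered with filterByExpr, scaled by TMM and tested with edgeR's robust quasi-likelihood test (edgeR 4.0.16, R 4.3.3), group as the only term, over all 12 libraries, 3 per group. Adjustment was by Benjamini and Hochberg over 18434 genes. SE derive from the F statistic and intervals are at 95%. The fit was tested on simulated data. Alternatives were DESeq2 1.42.0, limma-voom (limma 3.58.1), RLE size factors, other filters, a fit restricted to the compared groups, a block for the replicate number, length and GC offsets, and leaving out each library. Depth was 64257251 to 85604243 counts, so counting error matters for genes with few counts.

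The 9 genes and the pathway lists were chosen with earlier results of these data known. Named genes were the 9, the knocked-out genes, 10 fixed retinoid genes (1 of them is not reported here), up to 3 called genes of smallest adjusted p per list and comparison, and the 5 most like Cyp26b1. Top2b was added for its overlap with Rarb.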

Additional observations from a re-analysis of the deposited data

Results flagged for a closer look

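The test of whether the double-knockout change differs from the sum of the single-knockout changes passed for 2 of the 8 genes tested. Of all tested genes 10.3% passed. It is this difference between contrasts that marks the 2 genes. For Rdh10 the excess was 0.52 ± 0.14 on the log2 scale (edgeR adjusted p = 0.0298). The 3 double knockout libraries lay above all 9 others. For Dhrs3 the excess was 0.67 ± 0.18 (adjusted p = 0.0303). There the fall in Crebbp knockout was not seen on top of Ep300 knockout, since the double knockout libraries overlapped those of Ep300 knockout. Both calls were lost when some single libraries were left out, as given above.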

How the results depend on the processing

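For the 9 genes, 1186 of the log2 changes recomputed under an alternative stayed the same. For tested values that means the same direction and side of the threshold. For Cyp26b1 values without a test it means the same direction and a move within the spread between replicates. Of the others, 26 lost their call, 8 gained one and 30 changed sign. The remaining 1 (Cyp26b1, double against Crebbp knockout, -2.91 with length and GC offsets) moved beyond the spread between replicates. Counts of called genes are out of the 8 with a test, or out of 9 for double knockout against control. Without 1 library at a time, this count against control ran from 3 to 4 in Ep300 and 0 to 1 in Crebbp knockout. In double knockout it ran from 8 to 8. It ran from 3 to 4 between the single knockouts, 4 to 5 for double against Ep300, 6 to 7 for double against Crebbp and 0 to 2 for additivity. With only the groups compared it was 0 in Crebbp knockout. Over all genes, 577 passed in Crebbp knockout against control, 1270 without a filter on low counts, 1265 with DESeq2, 257 with only the groups compared, 1131 with length and GC offsets and 214 to 774 without 1 library. For additivity the 1897 calls became 1119 to 2861 without 1 library. Against control, the 2969 calls in Ep300 knockout became 2276 to 3204, and the 9102 in double knockout 7653 to 9493. The cause was not tested. The replicate number as a block gave 321 calls in Crebbp knockout and ended the call of Rarg between the single knockouts (adjusted p = 0.0849); it changed no other call among the 9 genes, and ended those of Adh7, Rdh13, Cyp1b1 and Nr2f2 in Crebbp and of Rlbp1 and Kat2b in Ep300 knockout (adjusted p of 0.0511 to 0.0718). The numbers do not pair the libraries: correlations of same-numbered libraries ran from -0.468 to 0.278, and 1 of 12 libraries correlated best with its own number. Sign changes were of values with no call, apart from Rxrb under the offsets. Of the recomputed counts of called genes per pathway list, 736 stayed within 1.5 times and 98 did not. Crabp2 in Ep300 knockout read 0.11 with limma-voom, 0.00014 with the 1 CPM filter, 0.010 with the block, and -0.30 to 0.39 without 1 library. Without 1 library Rxrb in Ep300 knockout ran from -0.095 to 0.064 and Rdh10 in Crebbp knockout from -0.059 to 0.065, the latter 0.032 with offsets. Dhrs3, double against Ep300, read -0.0007714 with limma-voom, -0.0009928 with the 1 CPM filter, -0.0090 with only the groups compared, -0.0084 with offsets, and -0.079 to 0.052 without 1 library. With offsets Rarg read -0.013 and Rxrb -0.082 for double against Ep300, and Rxrb -0.23 in double knockout and -0.12 for additivity. Rxrb, double against Crebbp, read 0.0072 with no filter, 0.0043 with the 1 CPM filter, and -0.055 to 0.033 without 1 library, where it ran from -0.070 to 0.088 for additivity. No scaling moved the median of all genes by over 0.1.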
